A study of Homo sapiens with 6 samples.

Results

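The histone genes of the HIST clusters were examined in the human breast cancer line MDA-MB-453. Members were the genes of the count table whose symbol begins with HIST1H to HIST4H and a digit, other than those named as pseudogenes by the ending PS, with at least 10 counts in at least 3 of the 6 libraries. The rule was met by 50 of 36517 genes, out of 71 whose names matched. Of these, 48 are annotated as protein coding and 2, HIST2H2BC and HIST2H2BD, as pseudogenes. By histone type they were 4 H1, 13 H2A, 16 H2B, 10 H3 and 7 H4 genes. By place they were 35 genes of HIST1 on chromosome 6, 12 of HIST2 and 2 of HIST3 on chromosome 1, and HIST4H4 on chromosome 12 (GRCh38).

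In this study, cells given a lentivirus with a hairpin against tRF-1-Ser (lv_shtRF, here shtRF, n = 3) were compared with cells given a lentivirus with a negative-control hairpin (lv_con, here control, n = 3), all sampled at day 3. tRF-1-Ser derives from the 3′ trailer of a serine pre-tRNA, and the comparison asked which transcripts change when it is knocked down. Both groups carried a lentiviral hairpin and came from 1 cell line, and no library without a virus was analysed here. Nothing in the sources used here says that the 3 replicates were separate transductions, so p-values measure the spread between these libraries only.

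Histones package DNA: H2A, H2B, H3 and H4 form the core of the nucleosome and H1 binds the linker DNA between nucleosomes. Most genes of the HIST clusters are replication dependent. They are transcribed mainly in S phase, have no introns, and their mRNA ends just after a short stem-loop, without a poly(A) tail. The stem-loop is bound by SLBP and read by the U7 small nuclear ribonucleoprotein. Some of these genes can also give longer or spliced transcripts that run past the stem-loop to a poly(A) site. The libraries were made with a stranded mRNA kit. Such kits usually capture RNA by its poly(A) tail, although the selection step is not described in the sources used here, so a low level here need not mean a low level in the cells.

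The stem-loop was found in the annotated transcripts of 30 of the 50 members, by the letters GGNNCTTTTNAGNGNC on the transcript strand. The following 30-base stretches (GENCODE release 29, 5′ to 3′) are shown because they cover each of the 5 versions found, with the stem-loop in capitals.

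HIST3H2A: ataaaGGCTCTTTTCAGAGCCacctactat

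HIST2H2BE: ccaaaGGCTCTTTTCAGAGCCacccaccta

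HIST1H2AC: ccaaaGGCTCTTTTCAGAGCCcccctaccg

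HIST1H2BC: ccaaaGGCTCTTTTAAGAGCCacccagata

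HIST2H4A: ccaaaGGCCCTTTTTAGGGCCgaccacttg

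HIST1H4H: ccaaaGGCCCTTTTCAGGGCCgcccacttt

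HIST1H2AG: ccaacGGCTCTTTTCAGGGCCacccacgtc

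The version of HIST3H2A was shared by 17 members, among them HIST2H2BE and HIST1H2AC. The other versions were held by 3 or 4 members each. In 24 of the 30 genes at least 100 annotated bases followed the stem-loop, up to 5804 bases in the pseudogene HIST2H2BC. For example, 1128 bases followed it in HIST1H2AC, 1729 in HIST2H2BE and 390 in HIST3H2A. The models counted for the pseudogenes HIST2H2BC and HIST2H2BD have only 580 and 493 bases, so most of the stretch after their stem-loop was not counted. In the other 20 of the 50 members these letters were not in the annotated model. The matches in coding transcripts all lay past the stop codon, so a model that ends there cannot hold them. Short models without a match include HIST1H2BK with 381 bases and HIST1H4K with 312 bases. Reads past the annotated end of such a model were not counted for it. Other models without a match were longer, such as HIST1H3E with 2679 bases and HIST1H2BJ with 950 bases. Why these held no match was not tested. A poly(A) signal (AATAAA or ATTAAA) lay within the last 50 bases of at least 1 annotated transcript for 24 members.

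The libraries held 63541413 to 78917459 counts. Libraries of 1 group correlated at 0.9973 to 0.998 (Pearson's r of log2 values over the genes tested) and libraries of different groups at 0.988 to 0.989. Markers of this cell line (ERBB2, FOXA1, GATA3, KRT8, KRT18, EPCAM and SPDEF) were present with at least 4871 counts in every library. ESR1 had 4 to 26 counts. Of the markers of other cells, DCN, COL1A2, PTPRC, CD3E, PECAM1 and VWF had at most 20 counts in any library, whereas COL1A1 had 2288, 2416 and 2350 counts in control and 1488, 1442 and 1274 in shtRF.

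The members took a small part of the libraries. Summed, with counts scaled to library size and TMM factors (CPM), they came to 353.4, 389.7 and 356.2 in control and to 296.4, 305.0 and 307.7 in shtRF. All 3 shtRF sums lay below all 3 control sums, and the mean fell by 17.3%, from 366.4 ± 20.19 to 303.0 ± 5.927 CPM (SD, n = 3). HIST3H2A alone made up 25.2% to 33.5% of the sum. Without it the mean fell by 12.2%, from 254.0 ± 5.755 to 223.0 ± 2.448 CPM. In bulk RNA, fewer cells in S phase and less histone RNA per cell cannot be told apart.

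With edgeR's quasi-likelihood test across all genes, 13 of the 50 members (26%) were lower in shtRF at an adjusted p under 0.05, where 18.9% of the 19628 genes tested were lower. Only 1 member (2%), HIST1H2AC, was higher, where 20.6% of all genes were higher. Thus 28% of the members were called in either direction, below the background of 39.5%, and 13 of the 14 calls were falls. The median log2 fold change of the members was -0.33, with 37 below 0 and 13 above, beside a median of 0.00 for all genes tested. Groups did not overlap for 17 members that were lower in shtRF (34%, background 23.8%) and for 1 that was higher (2%, background 24.9%), or 18 in either direction (background 48.7%).

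The shares differed with abundance. Of the 32 members with a mean of at least 1 CPM, 12 were lower (37.5%) and 1 was higher, and their median log2 fold change of -0.21 was closer to 0 than that of all 50. Of the 14699 genes of that level, 22.7% were lower and 25.6% were higher. Among the 18 rarer members only HIST1H3B was called, and their median log2 fold change was -0.38. Their standard errors ran from 0.29 for HIST1H4K to 0.62 for HIST2H2AC.

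**Figure D1:**
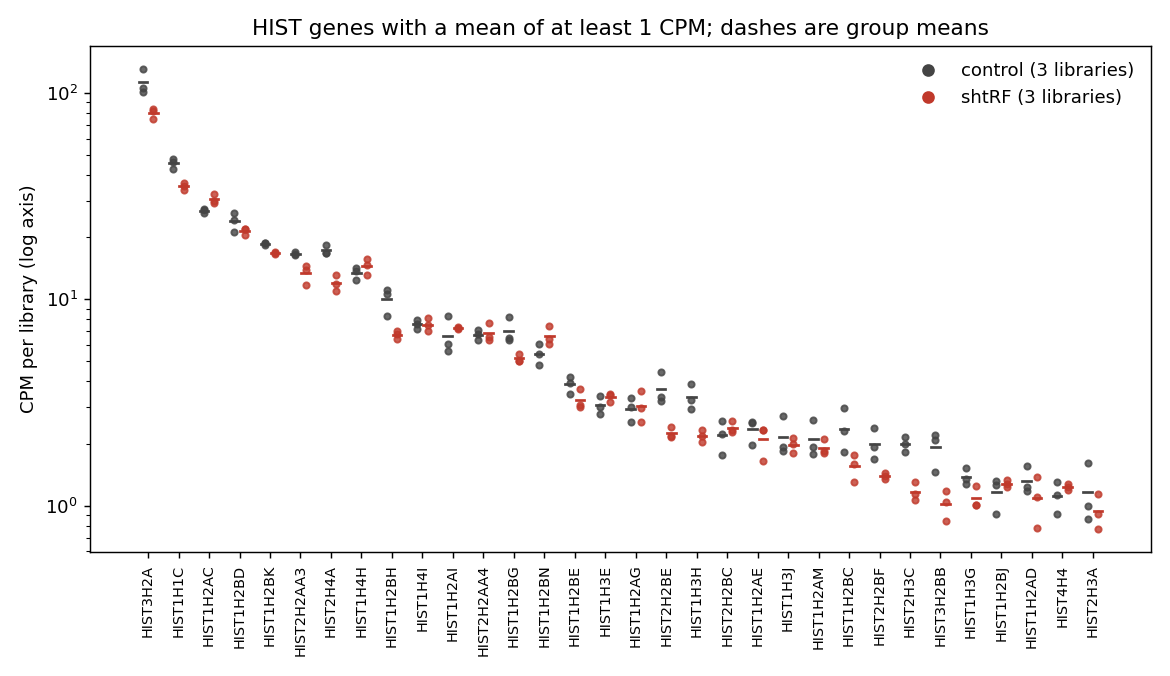
Level of the 32 members with a mean of at least 1 CPM, as CPM on a log axis, with 1 point per library, control in grey and shtRF in red, and dashes at the means of 3 libraries. HIST3H2A stands highest at 101 to 131 CPM in control and 74.7 to 83.4 CPM in shtRF, and the red points of HIST1H2AC lie above the grey ones.

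Among the linker histones, HIST1H1C (chr6:26055787-26056428, minus strand) was the main one detected. It encodes H1.2, a major somatic linker histone. It had 42.8, 47.8 and 46.3 CPM in control and 35.6, 36.7 and 33.8 CPM in shtRF. The groups did not overlap, and its log2 fold change was -0.37 ± 0.061 (SE; edgeR adjusted p = 4.16e-05). The other 3 H1 members each averaged under 1 CPM. HIST1H1E and HIST1H1D, also somatic linker histones, had log2 fold changes of -1.03 ± 0.45 and -0.40 ± 0.48, and HIST1H1T, the testis form, had 0.53 ± 0.60, none of them past the threshold. HIST1H1B, another somatic H1 of the cluster, missed the count limit with 16, 6 and 22 counts in control and 6, 0 and 8 in shtRF.

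Among the H2A genes, HIST3H2A (chr1:228456979-228457873, minus strand) was the most abundant member on either scale. It had 106, 131 and 101 CPM in control and 74.7, 83.4 and 81.9 CPM in shtRF. Every shtRF library lay below every control library, and the log2 fold change was -0.49 ± 0.075 (adjusted p = 1.5e-05). Per length it averaged 128 RPKM in control and 87.64 RPKM in shtRF, ahead of HIST1H1C with 72.35 and 54.03 RPKM.

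HIST1H2AC (chr6:26124145-26139116, plus strand), a 2-exon H2A gene, went the other way. It had 26.3, 26.9 and 27.3 CPM in control and 30.1, 29.3 and 32.3 CPM in shtRF. The groups did not overlap but lay close to each other, and the log2 fold change was 0.19 ± 0.063 (adjusted p = 0.0224). This call was lost in 7 of the alternatives run, with adjusted p from 0.0595 to 0.132. Among these were upper quartile scaling and the fits without control replicate 1, control replicate 2 or shtRF replicate 3.

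HIST2H2AA3 (chr1:149842188-149842736, minus strand) had 16.5, 16.9 and 16.6 CPM in control and 13.9, 11.7 and 14.5 CPM in shtRF. All shtRF values were lower, with a log2 fold change of -0.32 ± 0.084 (adjusted p = 0.0043). Its copy HIST2H2AA4 had 6.36, 6.79 and 7.08 CPM against 6.59, 7.66 and 6.37 CPM, which overlapped (log2 fold change 0.03, adjusted p = 0.874). These genes share 100% and 96.8% of their 100-base windows with each other, so how reads were split between them is uncertain. Summed before the fit, the pair was lower in shtRF, at -0.21 ± 0.067 on the log2 scale (adjusted p = 0.0164).

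The remaining 5 H2A members of at least 1 CPM were not past the threshold. They were HIST1H2AI (0.13 ± 0.12), HIST1H2AG (0.03 ± 0.16), HIST1H2AE (-0.16 ± 0.18), HIST1H2AM (-0.15 ± 0.18) and HIST1H2AD (-0.28 ± 0.24), all given as log2 fold change and SE. HIST1H2AI shares 57.7% of its windows with another gene, mainly HIST1H2AJ, and 98% of HIST1H2AD lies in exons of RP1-34B20.21. HIST1H2AM overlaps HIST1H3J over 88% of its length, and the counts of these genes differed by 0 to 9 in each library. The reads of HIST1H2AM and HIST1H3J therefore cannot be told apart.

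Of the H2B genes, the largest type with 16 members, 6 were lower (background 18.9%) and none was higher. HIST3H2BB (chr1:228458107-228460470, plus strand), the neighbour of HIST3H2A, had 1.46, 2.09 and 2.19 CPM in control and 1.04, 0.845 and 1.18 CPM in shtRF. The groups did not overlap, and its log2 fold change of -0.91 ± 0.22 (adjusted p = 0.00199) was the largest fall among the members of at least 1 CPM.

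HIST2H2BE (chr1:149884459-149886652, minus strand), which encodes an H2B known to be made outside S phase as well, had 3.20, 4.46 and 3.36 CPM in control and 2.41, 2.16 and 2.18 CPM in shtRF. The lowest control library stood above the highest shtRF library (log2 fold change -0.71 ± 0.16, adjusted p = 0.00101). HIST1H2BC (chr6:26114873-26123926, minus strand) had 2.29, 1.81 and 2.97 CPM in control and 1.59, 1.30 and 1.76 CPM in shtRF. Its groups nearly touched, and the log2 fold change was -0.61 ± 0.20 (adjusted p = 0.0192). Without control replicate 3 or shtRF replicate 2 this call was lost, with adjusted p from 0.0947 to 0.153.

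HIST1H2BH (chr6:26251651-26253710, plus strand) had 11.1, 8.34 and 10.6 CPM in control and 6.79, 6.45 and 6.999 CPM in shtRF. The groups stood well apart, at a log2 fold change of -0.57 ± 0.11 (adjusted p = 2.04e-04). HIST1H2BG (chr6:26215159-26216692, minus strand) had 8.16, 6.50 and 6.36 CPM in control and 5.00, 5.46 and 5.05 CPM in shtRF. It was lower in every shtRF library, by -0.44 ± 0.12 on the log2 scale (adjusted p = 0.00477). HIST2H2BF (chr1:149782689-149812373, minus strand) had 1.92, 2.38 and 1.68 CPM in control and 1.44, 1.34 and 1.39 CPM in shtRF. Its groups did not overlap (log2 fold change -0.52 ± 0.19, adjusted p = 0.0367), but the call was lost in 5 of the 6 fits that left out 1 library, with adjusted p from 0.0536 to 0.187. It also shares 12.8% of its windows with HIST2H2BA.

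The H2B genes with the highest levels did not pass the threshold. HIST1H2BD had 21.2, 24.2 and 26.1 CPM in control and 20.43, 21.99 and 22.03 CPM in shtRF, which overlapped. HIST1H2BK had 18.7, 18.7 and 18.4 CPM in control and 16.84, 17.01 and 16.51 CPM in shtRF. These groups of HIST1H2BK did not overlap, but the log2 fold change was small (-0.15 ± 0.070, adjusted p = 0.109). HIST1H2BN (0.29 ± 0.12), HIST1H2BE (-0.25 ± 0.14), HIST1H2BJ (0.13 ± 0.23) and the pseudogene HIST2H2BC (0.12 ± 0.17) were not called either.

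Among the H3 genes, HIST2H3C (chr1:149839538-149841193, minus strand) had 2.15, 1.99 and 1.83 CPM in control and 1.30, 1.06 and 1.14 CPM in shtRF. The groups stood apart, with a log2 fold change of -0.76 ± 0.19 (adjusted p = 0.00318). Its copy HIST2H3A, which shares 100% of its windows, was not called at -0.30 ± 0.27 (adjusted p = 0.412), and the pair summed was lower by -0.58 ± 0.16 on the log2 scale (adjusted p = 0.00716).

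HIST1H3H (chr6:27810064-27811300, plus strand) had 2.94, 3.89 and 3.26 CPM in control and 2.18, 2.33 and 2.03 CPM in shtRF. No shtRF library reached the lowest control library (log2 fold change -0.63 ± 0.16, adjusted p = 0.00273). HIST1H3B (chr6:26031650-26032060, minus strand) was the only called member under 1 CPM, with 74, 76 and 42 counts in control and 28, 45 and 16 in shtRF. Its groups overlapped, and its log2 fold change of -1.01 ± 0.37 (adjusted p = 0.0338) was lost in 6 alternatives, with adjusted p from 0.0644 to 0.154. HIST1H3E (0.13 ± 0.14), HIST1H3G (-0.35 ± 0.22) and HIST1H3J (-0.14 ± 0.18) were not past the threshold.

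Among the H4 genes only HIST2H4A (chr1:149832659-149839767, plus strand) was called. It had 16.8, 18.3 and 16.8 CPM in control and 10.96, 11.82 and 13.14 CPM in shtRF. All shtRF libraries were lower, at a log2 fold change of -0.53 ± 0.084 (adjusted p = 2.49e-05). HIST2H4B, with which it shares 94.9% of its windows, averaged under 1 CPM in both groups, and the summed pair gave the same log2 fold change of -0.53 (adjusted p = 2.61e-05).

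HIST1H4H, an H4 gene of the same order of level in CPM, had 13.7, 12.4 and 14.2 CPM in control and 15.6, 13.1 and 14.6 CPM in shtRF. The groups overlapped (log2 fold change 0.10 ± 0.086, adjusted p = 0.375). HIST1H4I had 7.92, 7.22 and 7.63 CPM in control and 8.14, 6.99 and 7.48 CPM in shtRF, again overlapping, with a log2 fold change of -0.01 ± 0.099. HIST4H4 was not called either (0.15 ± 0.23). No H4 gene outside the copies HIST2H4A and HIST2H4B was called.

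**Figure D2:**
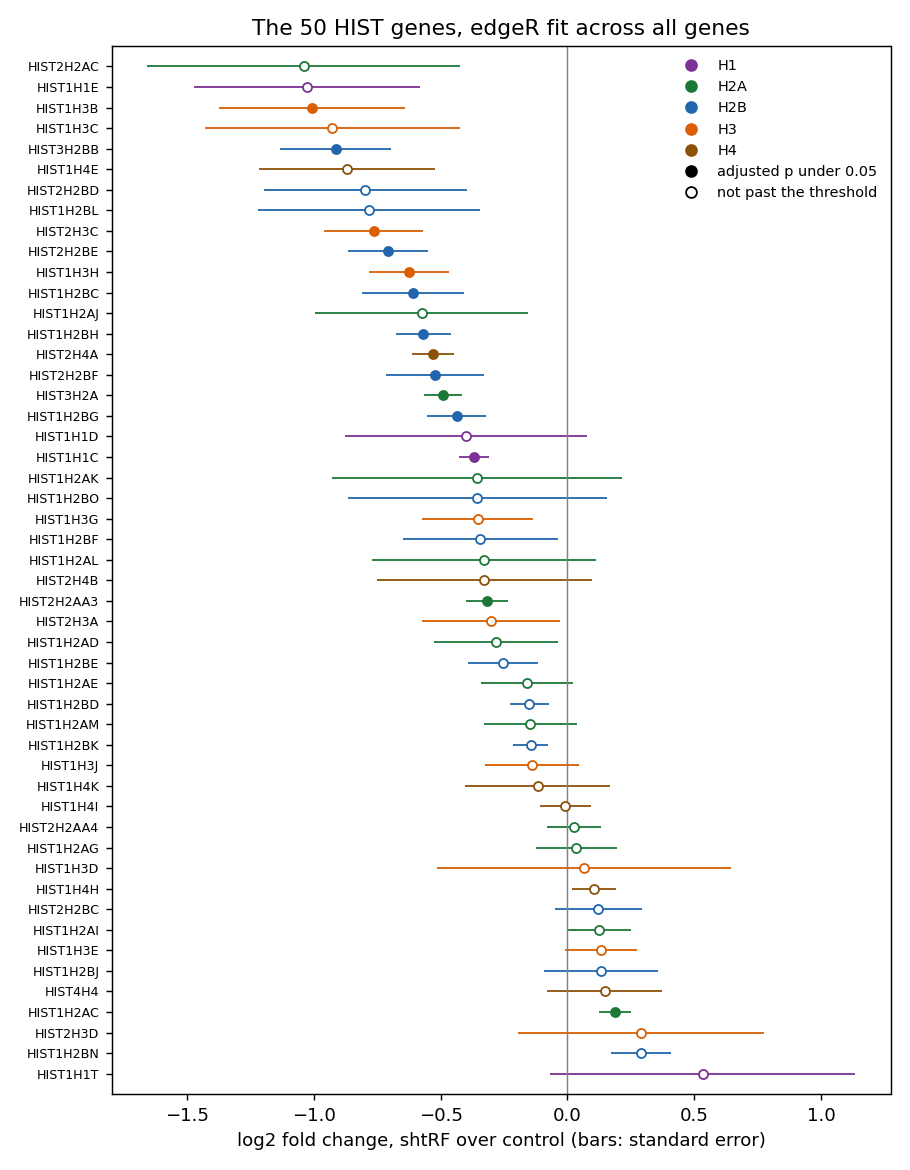
Log2 fold change (shtRF over control) of each of the 50 members on the horizontal axis, with bars of 1 standard error, coloured by histone type. Filled points have an adjusted p under 0.05, and 13 of the 14 filled points lie left of 0, with HIST1H2AC at 0.19 on the right.

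Summed by type, each of the 5 histones was lower in shtRF in every library. H1 fell from 46.78 ± 2.635 to 36.13 ± 1.305 CPM, H2A from 179.5 ± 17.64 to 147.1 ± 6.411 CPM, and H2B from 84.03 ± 1.262 to 71.29 ± 1.194 CPM (SD, n = 3). H3 went from 14.8 ± 0.8263 to 11.83 ± 0.1188 CPM and H4 from 41.36 ± 0.1777 to 36.64 ± 1.896 CPM. These sums were not tested, since a few abundant genes set them. The 5 most abundant members made up 59.9% to 63.7% of all member CPM. The median log2 fold change over genes was -0.38 for H1, -0.28 for H2A, -0.40 for H2B, -0.33 for H3 and -0.12 for H4.

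**Figure D3:**
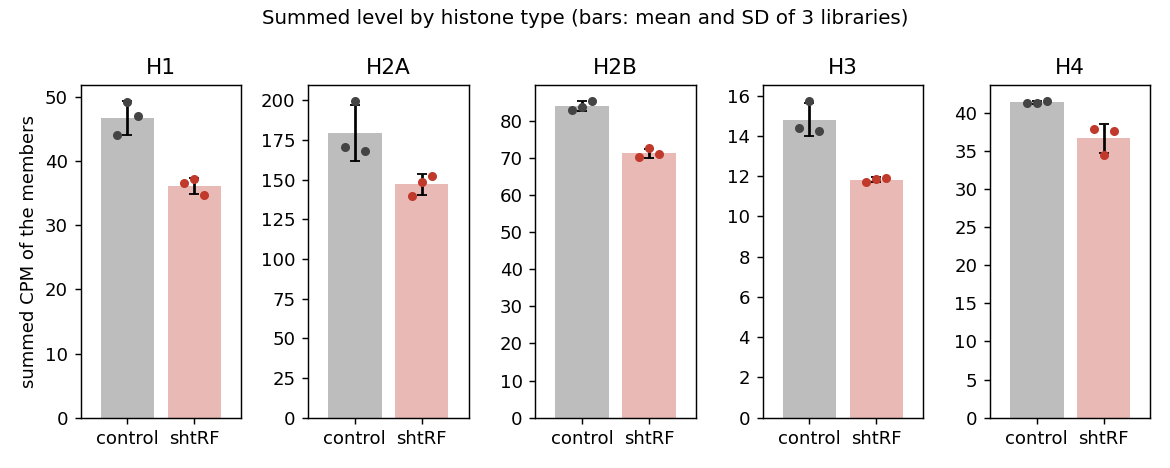
Summed CPM of the members of each histone type, with bars at the mean of 3 libraries, error bars of 1 SD and a point for each library. In every panel the 3 shtRF points lie below the 3 control points, and the vertical axes start at 0 but differ between panels.

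By place, 5 of 12 HIST2 members, both HIST3 members and 6 of 35 HIST1 members were lower, and the last of these shares is close to the 18.9% of all genes. The median log2 fold change was -0.42 in HIST2 and -0.28 in HIST1. HIST1 also held the gene that was higher. No difference between the clusters was tested.

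The annotated form was compared next because of the library kit. Single-exon models under 1000 bases were called short and the rest long or spliced. These classes, and those by the stem-loop below, describe the annotated models and not the RNA that was sequenced. Each class held 25 members. Of all genes tested, 18.9% were lower and 20.6% were higher, or 22.7% and 25.6% of those with at least 1 CPM. In the short class 4 were lower and none was higher (median log2 fold change -0.33), and in the long or spliced class 9 were lower and 1 was higher (median -0.33). Restricted to a mean of at least 1 CPM, 3 of 10 short members were lower (median -0.15), as were 9 of 22 long or spliced members (median -0.28). When members were classed by the stem-loop instead, 10 of the 24 with at least 100 bases after it were lower and 1 was higher (median -0.39). Of the 6 with fewer bases after it, 1 was lower (median -0.16), and of the 20 without a match 2 were lower (median -0.31). The shares lower among these 6, these 20 and the short class did not exceed that of all genes. No difference between classes was tested. The class with at least 100 bases after the stem-loop also held 20 of the 32 members with a mean of at least 1 CPM. Of the 13 members that were lower, 9 had an annotated transcript with a poly(A) signal near its end, as did 24 of all 50 members. No link between this signal and the falls was tested.

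The 21 genes that matched the name rule but not the count limit had at most 22 counts in any library. Just outside the limit were HIST1H1B, HIST1H2AH, HIST1H4D, HIST2H2AB and HIST2H2BA, each with 8 counts in its third-highest library. Just inside were HIST1H1T and HIST2H2AC, with 12. Some core cluster genes, such as HIST1H4C with 0 to 5 counts and HIST1H3A with 0 to 6 counts, were thus hardly detected in these libraries.

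Many H2A and H2B genes stand in divergent pairs, start to start, with a shared stretch of promoter between them. The members included 11 divergent pairs less than 1000 bases apart, of which HIST1H2BO belongs to 2, with HIST1H2AM and with the H3 gene HIST1H3J. As the reads of HIST1H2AM and HIST1H3J cannot be told apart, these 2 pairs are not separate observations. The log2 fold changes of both partners had the same sign in 9 pairs and opposite signs in 2. In 2 of the 9, HIST2H2BC with HIST2H2AA4 and HIST1H2BJ with HIST1H2AG, none of the genes was called, and the signs parted under upper quartile scaling and both limma fits. The interval between the partners is shown for a pair whose genes both fell and for a pair called in opposite directions. Capitals mark CCAAT or its complement ATTGG and the octamer ATTTGCAT or its complement ATGCAAAT. The sequences are from RefSeq (GRCh38.p14), on the plus strand.

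HIST3H2A and HIST3H2BB, chr1:228457874-228458106: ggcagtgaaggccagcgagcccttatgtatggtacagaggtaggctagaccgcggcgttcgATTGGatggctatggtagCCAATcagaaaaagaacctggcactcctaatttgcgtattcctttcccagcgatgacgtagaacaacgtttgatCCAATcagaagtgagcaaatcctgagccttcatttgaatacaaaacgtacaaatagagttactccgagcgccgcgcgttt

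HIST1H2BC and HIST1H2AC, chr6:26123927-26124144: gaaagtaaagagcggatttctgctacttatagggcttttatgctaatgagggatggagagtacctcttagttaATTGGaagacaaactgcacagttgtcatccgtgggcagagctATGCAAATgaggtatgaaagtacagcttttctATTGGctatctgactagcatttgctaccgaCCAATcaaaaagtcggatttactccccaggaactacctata

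HIST3H2A and HIST3H2BB lie 233 bases apart and were both lower. HIST1H2BC and HIST1H2AC lie 218 bases apart. The CPM of HIST1H2AC divided by that of HIST1H2BC was 11.49, 14.85 and 9.18 in control and 18.85, 22.62 and 18.36 in shtRF. The ratio was higher in all 3 shtRF libraries, which is a description and not a test, since the pair was picked for its opposite calls. For HIST3H2A over HIST3H2BB the ratio was 72.39, 62.46 and 46.08 in control and 71.9, 98.71 and 69.55 in shtRF, which overlapped. The other pair of opposite sign, HIST1H2BL with HIST1H2AI, differed by 0.91 between the log2 fold changes, but neither gene was called.

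**Figure D4:**
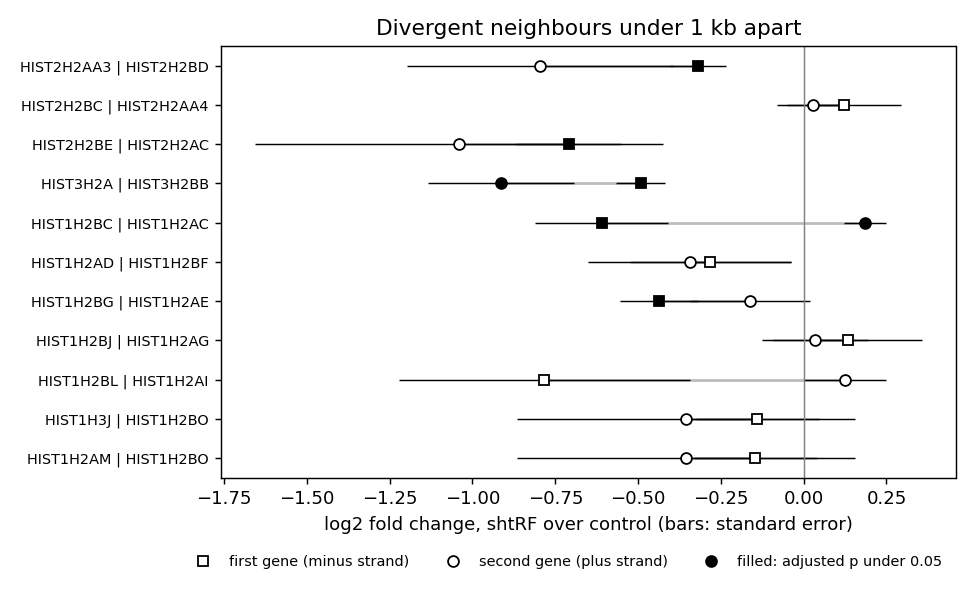
Log2 fold change (shtRF over control) of both genes of each divergent pair, with squares for the gene on the minus strand, circles for that on the plus strand, filled symbols for an adjusted p under 0.05 and bars of 1 standard error. The partners lie on the same side of 0 in 9 of 11 pairs, and HIST1H2BC at -0.61 faces HIST1H2AC at 0.19.

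Promoter letters were searched in the 250 bases before the start of 44 members found in the RefSeq table, on both strands. The octamer was present in 38.6% of them, as against 1.63% of 35116 promoters of the same length, and it occurred in 61.5% of H2A and 75% of H2B members but in no H1, H3 or H4 member. CCAAT was present in 86.4% (all promoters 32%) and TATAAA in 59.1% (all promoters 10.7%). With the octamer, 5 of 17 members were lower and 1 was higher (median log2 fold change -0.34). Without it, 8 of 27 were lower (median -0.35). Of all genes tested, 18.9% were lower and 20.6% were higher. Partners of a divergent pair can hold the same octamer, as HIST1H2BC and HIST1H2AC do, so these members are not all separate promoters. A match is a description of these letters and not a binding site. These motifs can overlap one another in a promoter, as each was searched separately.

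Factors that make or process histone mRNA moved in both directions. Of 22 genes tested of this list, 8 were higher and 6 were lower, beside 20.6% and 18.9% of all genes, or 25.6% and 22.7% of those with at least 1 CPM (median log2 fold change 0.05). In both limma fits and without control replicate 2, 5 were higher. LSM11, a subunit of the U7 ribonucleoprotein, had 2.03, 3.18 and 3.08 CPM in control and 1.79, 1.25 and 0.951 CPM in shtRF. Its groups did not overlap, and the log2 fold change was -1.05 ± 0.22 (adjusted p = 5.67e-04). Other genes tied to U7 were not called, namely LSM10 (0.06, adjusted p = 0.8) and ZNF473 (-0.19, adjusted p = 0.161). The U7 RNA itself, RNU7-1, was not called either (0.51, adjusted p = 0.101), though every shtRF library lay above every control library. CTIF, a factor in translation of cap-binding-complex bound mRNA, rose from 9.51 ± 0.929 to 13.4 ± 0.441 CPM (adjusted p = 1.18e-04). CSTF2, a cleavage stimulation factor subunit, rose from 83.9 ± 4.35 to 112 ± 6.54 CPM (adjusted p = 4.86e-06). NPAT, the coactivator of these clusters, was lower (log2 fold change -0.32, adjusted p = 0.00404), while SLBP, which binds the stem-loop, was higher (0.28, adjusted p = 6.36e-04).

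The list of replacement histones, most of which are made outside S phase as well and from polyadenylated mRNA, held 11 genes tested. Of these 6 were lower (background 18.9%), none was higher, and 5 were not past the threshold, from -0.12 for CENPA to 0.06 for H2AFJ on the log2 scale (median of the list -0.24). H1F0, the linker histone H1.0, had 970 ± 69.3 CPM in control and 645 ± 21.4 CPM in shtRF (log2 fold change -0.59 ± 0.059, adjusted p = 4.36e-08). H3F3A, a gene for H3.3, was lower by -0.56 ± 0.057 (adjusted p = 5.98e-08), and H1FX by -0.52 ± 0.062 (adjusted p = 6.24e-07). H3F3B, H2AFZ and H2AFX were the other genes that were lower. The summed CPM of the list was 2420 ± 124.1 in control and 1917 ± 62 in shtRF, well above that of the cluster genes.

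Of 24 histone chaperones and related factors, 5 were higher and 9 were lower, where 20.6% and 18.9% of all genes were (median log2 fold change -0.09). The share that was higher is thus near that background. NAP1L1 fell from 565 ± 19.5 to 359 ± 19.0 CPM and its relative NAP1L4 rose from 463 ± 14.4 to 654 ± 44.4 CPM (adjusted p = 3.89e-09 and 4.05e-07). ANP32E, the chaperone that removes H2A.Z, fell from 699 ± 28.4 to 511 ± 44.2 CPM (adjusted p = 3.89e-06).

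Of 30 genes of S phase entry and DNA replication, which include the cyclin-dependent kinase inhibitors CDKN1A and CDKN1B, 17 were lower and 4 were higher (background 18.9% and 20.6%; median log2 fold change -0.17). The 4 that were higher became 1 in both limma fits and without shtRF replicate 2, and 2 without control replicate 1, control replicate 2 or shtRF replicate 3. CDT1, a replication licensing factor, fell from 21.3 ± 1.63 to 11.6 ± 0.643 CPM (adjusted p = 1.35e-08). GINS2, a subunit of the replicative helicase complex, went from 11.997 ± 1.02 to 7.44 ± 0.894 CPM (adjusted p = 9.68e-06) and E2F2, a transcription factor of the G1 to S transition, from 23.8 ± 0.709 to 16.0 ± 1.85 CPM (adjusted p = 6.29e-06). The 4 that were higher were SLC29A1, a nucleoside transporter (log2 fold change 0.47), CDKN1A, which encodes p21 (0.46), RRM2, a subunit of ribonucleotide reductase (0.18), and E2F1, a transcription factor of the G1 to S transition (0.17). CDKN1B was not called (-0.10, adjusted p = 0.168). The part of S phase in the levels of the histone genes was not tested.

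RNAs that carry no poly(A) tail were followed as a measure of what the library kit retained. Of 26 on the list, 10 had enough counts to be tested, and 3 of these were higher and none was lower. The 3 that were higher became 2 with upper quartile scaling, either stricter filter, DESeq2 or both limma fits, and 4 without a filter. The background was 20.6% higher and 18.9% lower of all genes, or 25.6% and 22.7% of those with at least 1 CPM. RN7SK had 1.95 ± 0.642 CPM in control and 3.95 ± 0.663 CPM in shtRF (log2 fold change 1.03 ± 0.19, adjusted p = 1.70e-04). RN7SL1, the RNA of the signal recognition particle, had a log2 fold change of 0.52 (adjusted p = 0.00132), and RPPH1, the RNA of RNase P, of 0.20 (adjusted p = 0.0398). RN7SL2, also of this list, had 0.53 but was not called (adjusted p = 0.0734), and its groups overlapped. Together the 10 RNAs came to 47.06, 37.35 and 46.86 CPM in control and to 59.95, 50.89 and 51.26 CPM in shtRF, with every shtRF library above every control library. RPPH1, at 30.9 ± 3.73 CPM in control and 35.4 ± 1.38 CPM in shtRF, made up most of this sum. Of the 10 RNAs, 5 had log2 fold changes below 0 and 5 above (median 0.05). Their part in the levels of the histone genes was not tested.

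**Figure D5:**
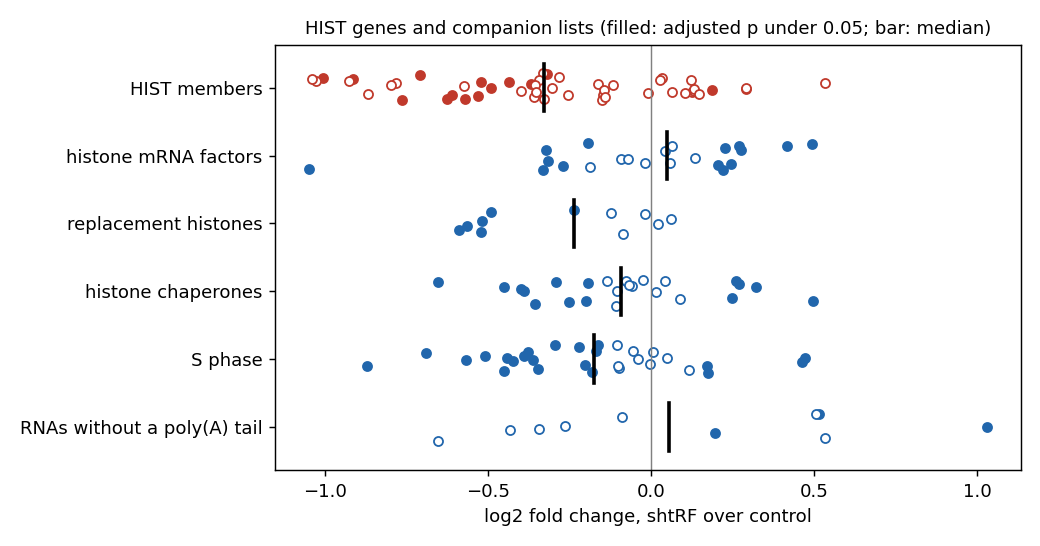
Log2 fold change (shtRF over control) of each gene tested, for the 50 members (red) and 5 companion lists (blue), with filled points at an adjusted p under 0.05 and a black bar at the median of each list. The median is -0.33 for the members, -0.24 for replacement histones and -0.17 for S phase genes, and it lies at 0.05 for histone mRNA factors and for RNAs without a poly(A) tail.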

How the data were processed

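mRNA was sequenced in 6 libraries of MDA-MB-453 cells (3 control, 3 shtRF, grouped by title) as PE150 read pairs. The authors deposited raw read counts per gene with exon coordinates and lengths. They also deposited RPKM values, and in the part used here (4997 complete genes) all 4991 matched genes had RPKM equal, within 0.01%, to the count divided by gene length and library total, so RPKM was recomputed from the counts. The submitters' processing notes list Trimmomatic 0.36, featureCounts, Subread 1.5.1, edgeR 3.12.1 and GRCh38. The aligner and annotation are not given in the sources used here. Among counts of 1 to 4, 74.2% to 77.1% were even in each library. How pairs, strand and reads shared by genes were counted is not given in those sources.

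Genes were filtered with filterByExpr, scaled with TMM (factors 0.961 to 1.03) and tested with edgeR 4.0.16 (R 4.3.3; quasi-likelihood, group only, Benjamini-Hochberg over 19628 genes, threshold 0.05). CPM are TMM-scaled. Errors are SD over 3 libraries, and SE for fold changes. Replicates of a group differed by more than sampling noise (chi-square per degree of freedom 5.93 to 17.2). Members and companion lists were chosen with earlier results of these data known. Named are members with a mean of at least 1 CPM or a call, and per list the 3 called genes of at least 1 CPM with the largest change. Library values were planned for the 5 largest rises and falls and are given for all called members. NPAT, SLBP, LSM10, ZNF473, RNU7-1, RN7SL2, SLC29A1, CDKN1A, CDKN1B, RRM2, E2F1, CENPA, H2AFJ, H3F3B, H2AFZ, H2AFX and the members not called under 1 CPM were added after their values were seen. Exon overlaps were taken from the deposited coordinates, and stem-loops and shared 100-base windows from GENCODE release 29 transcripts, where all 50 members had the same locus. CRAMP1L was the only entry of the lists for histone factors, chaperones and S phase that was not tested. Another marker of the cell line is not reported here.

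Alternatives were RLE and upper quartile scaling, 3 other filters, DESeq2 1.42.0, limma 3.58.1 on log2(RPKM + 1) and log2(RPKM + 0.1), a replicate block, halved counts, genes with under 10% exon overlap, leaving out each library and, chosen after seeing the data, copies summed and classes by the stem-loop. On counts simulated for this comparison over 19318 genes, edgeR recovered 70 of 95 genes changed 2-fold (1 on the log2 scale) and 92 of 96 genes changed by 2 on the log2 scale, with 17 false calls among 179.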

Additional observations from a re-analysis of the deposited data

How the results depend on the processing

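The count of members lower in shtRF stayed between 11 and 15 under every alternative (11 to 14 when 1 library was left out). The count of members higher was 0 with upper quartile scaling, without a filter and in both limma fits, 2 with the replicate block, and 0 to 2 when 1 library was left out. Nothing in the sources used here says that libraries of the same number were handled as pairs. With group means removed, same-number libraries correlated at 0.059, 0.018 and 0.017, and unlike numbers were not compared. The gene gained under the block was HIST1H2BN, and 13 members were again lower. The median log2 fold change of the members was -0.23 with at least 1 CPM in 3 libraries, -0.18 on log2(RPKM + 1) and -0.38 to -0.27 when 1 library was left out. Both limma fits gave 5 histone mRNA factors higher, 1 S phase gene higher and 1 RNA without a poly(A) tail lower. Without 1 library these were 5 to 9, 1 to 4 and 0. Without control replicate 1, control replicate 2, shtRF replicate 2 or shtRF replicate 3, the S phase genes higher were 2, 2, 1 and 2, and histone mRNA factors higher were 5 without control replicate 2. Members with under 100 bases or no match past the stem-loop had a median of -0.22.

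Of 585 values of named members under alternatives, 540 kept their call and their sign, 20 lost and 8 gained a call, and 17 turned sign, all for genes that were not called. As log2 fold changes with upper quartile scaling, on log2(RPKM + 1) and on log2(RPKM + 0.1), HIST2H2AA4 had -0.009, -0.027 and -0.029, and HIST1H2AG had -0.002, -0.010 and -0.018. With 1 library left out, HIST2H2AA4 ran from -0.056 to 0.081, HIST1H2AG from -0.100 to 0.143, HIST1H4I from -0.075 to 0.046, HIST2H2BC from -0.013 to 0.248, HIST2H3A from -0.480 to 0.008, HIST1H2BJ from -0.025 to 0.220, HIST1H2AM from -0.257 to 0.040 and HIST1H3J from -0.246 to 0.059. The cause was not tested. Calls gained were HIST1H2BK with upper quartile scaling and both limma fits, HIST1H2BN with the block, without control replicate 2 and without shtRF replicate 3, HIST1H2AI without control replicate 2 and HIST1H2BD without control replicate 1. The 18 members under 1 CPM had the fewest reads, and their standard errors reached 0.62.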
